A study of Mus musculus with 9 samples.

Results

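The comparison sets ovaries of mice given cyclophosphamide together with hyperbaric oxygen (HBOT, 3 libraries) against ovaries of the negative reference group NC (3 libraries), whose labels name neither treatment. It covers the 13044 genes that reached 1 FPKM in 3 or more of these 6 libraries, out of 22544 genes and assembled loci in the deposited table, and results are given both with and without HBOT replicate 2. FPKM is a count of sequenced fragments scaled by transcript length and by the size of the library. All animals were mice and the tissue was ovary. The sources used here give no strain, age, drug dose, oxygen pressure, number of sessions or time of collection. Another group, CTX, received the drug without oxygen and is given beside the comparison where its values bear on it, but no group received oxygen without the drug. The effects of the drug and of oxygen on the HBOT ovaries therefore cannot be told apart in this comparison.

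Cyclophosphamide is an alkylating drug that crosslinks DNA and is known to deplete ovarian follicles. A follicle is an oocyte wrapped in granulosa cells, which make estrogens from androgens supplied by the surrounding theca cells. After ovulation, a surge of gonadotropin having switched on a short-lived gene programme, the emptied follicle becomes a corpus luteum that makes progesterone. Hyperbaric oxygen is breathing of oxygen above atmospheric pressure, and it raises dissolved oxygen and reactive oxygen species in tissue.

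The tissue label was borne out by defining markers. Foxl2, which sets granulosa cell identity, was between 52.6 and 84.8 FPKM in the 6 libraries, and the theca hormone Insl3 between 15.4 and 41.8. The adipocyte markers Adipoq, Cidec and Lep and the basal epithelial keratin Krt5 were listed at 0 in all 6. Other genes of the adipocyte list were present, with 6 of 14 passing the filter. Among them, Lpl was between 15.9 and 22.04 FPKM and Pnpla2 between 15.9 and 37.3. The perilipin Plin1 was between 0.698 and 20.1 and Plin4 between 1.68 and 75.9. Of the epithelial genes, Tppp3 of the oviduct and uterine list was between 6.7 and 18.8, and Epcam of the surface epithelium list between 2.52 and 6.67. Library sums of FPKM ranged from 394046 to 420058. Read counts could not be recovered from FPKM, so depth is unknown and the spread between libraries is the only measure of precision. HBOT replicate 2 stood apart. It differed from the average of the other 5 by over 1 log2 unit in 1630 of the 13044 genes, against 175 to 257 genes for each of those libraries. Its highest rank correlation with any of them, across genes, was 0.9035, where each of the others reached at least 0.977.

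Each gene was compared on the scale of log2(FPKM + 1), which understates the fold of low genes, with limma, a linear model that shares information on the spread between genes. No gene passed an adjusted p of 0.05 (0 of 13044, 0.0%), and the smallest adjusted p, 0.227, was shared by 41 genes. With HBOT replicate 2 left out the count was again 0 of 13044 (0.0%), with a smallest adjusted p of 0.126. At an unadjusted p under 0.05 there were 1537 genes (11.8%), 798 of them higher in HBOT (6.12%) and 739 lower (5.67%). Without HBOT replicate 2 there were 1705 (13.1%), 1130 higher (8.66%) and 575 lower (4.41%). Of the 1537 genes, 989 also had an unadjusted p under 0.05 in the second fit with the same sign, and 0 changed sign. The split between higher and lower genes depended on scaling. With values rescaled to TPM, 659 of 1582 were higher (41.7%, against 51.9% unscaled). Without HBOT replicate 2, median-of-ratios scaling gave 881 of 1751 (50.3%, against 66.3% unscaled). Whether replicates are separate animals is not stated in the labels, so a p-value here reflects the spread of these samples alone.

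A limma fit with library weights, in which each library counts by its estimated agreement with its group, gave calls where equal weights gave none. HBOT replicate 2 received a weight of 0.0981, against 0.579 to 2.41 for the other 8 libraries, and 174 of 13044 genes passed an adjusted p of 0.05 (1.33%), 128 higher (0.981%) and 46 lower in HBOT (0.353%). Among the gene lists described further on, 8 of 16 antigen presentation genes were called higher (B2m, Cd74, H2-Aa, H2-Ab1, H2-D1, H2-Q4, Nlrc5 and Psmb8). The same held for 5 of 25 oocyte genes (Bmp15, Dppa3, H1f8, Nlrp14 and Nlrp5), and in the corpus luteum list Ldhb was called higher and Parm1 lower. These calls rest on weights estimated from the same libraries, which nearly remove HBOT replicate 2. At equal weights, leaving that library out gave 0 calls with CTX in the fit and 5 with the HBOT and NC libraries alone (Nnat, Tgtp1, Tgtp2 and H2-Q4 higher, Parm1 lower).

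The 3 HBOT libraries lay above all 3 NC libraries for 1415 genes (10.8%) and below all of them for 1262 (9.67%). With 2 HBOT libraries left, these counts were 3045 (23.3%) and 1741 (13.3%). A gene that does not overlap with 3 libraries cannot overlap with 2 of them, so the fold change without HBOT replicate 2, not the separation, is what is compared in the sections that follow. In all, 6173 of 13044 genes had a higher mean in HBOT (47.3%), and 7577 without HBOT replicate 2 (58.1%, leaving 41.9% lower), with a median log2 fold change over all genes of -0.016 and 0.041. Fold changes of 2 or more at an unadjusted p under 0.05 were found for 98 higher and 125 lower genes, and for 92 and 72 without HBOT replicate 2. The filter bears on low genes. All 52 genes under 1 FPKM in every NC library entered through HBOT and were higher by construction, and 34 entered through NC alone. Just inside the threshold stood 296 genes with 3 libraries at 1 FPKM, and just outside it 312 genes with 2.

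**Figure D1:**
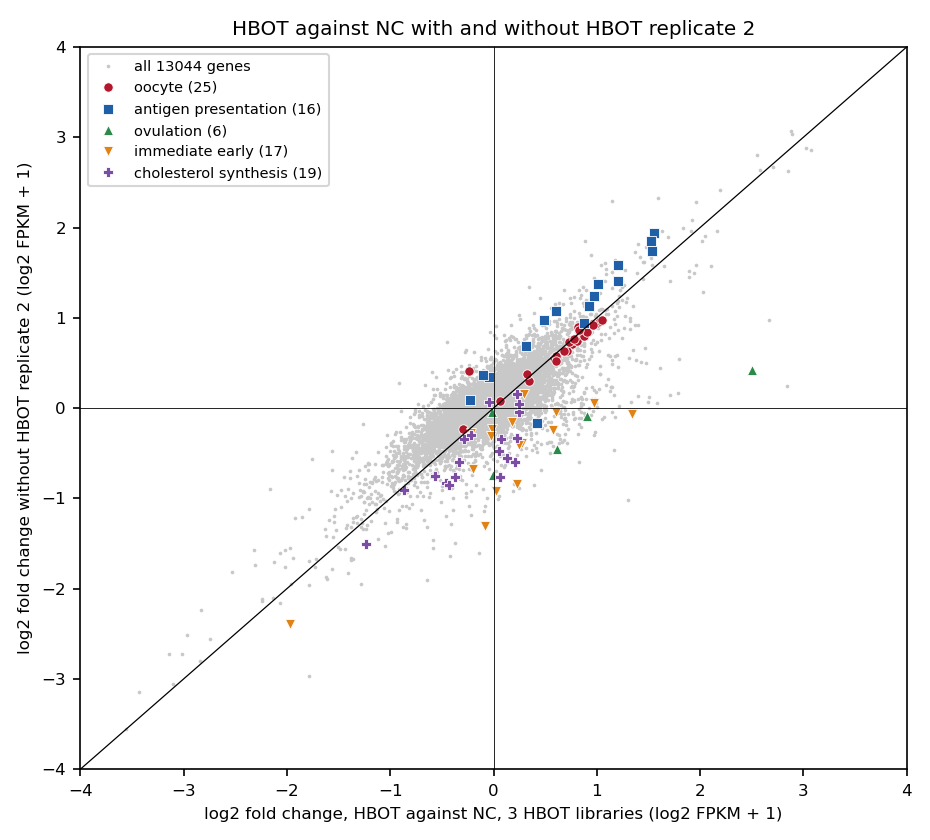
Each point is a gene, with its log2 fold change of HBOT against NC over 3 HBOT libraries on the x axis and without HBOT replicate 2 on the y axis, and the diagonal marks equal values. Oocyte genes lie near the diagonal and antigen presentation genes, other than H2-Eb1, above it, whereas most ovulation, immediate early and cholesterol synthesis genes lie below it. 1 gene, Bhmt (-5.66), is outside the axes.

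Values are given in the order of replicates 1, 2 and 3, and a pair of values in brackets is the log2 fold change with all 3 HBOT libraries and without HBOT replicate 2. The 10 genes of each direction, and 6 more without HBOT replicate 2, were named only where HBOT and NC did not overlap. Their separation was therefore fixed by that rule. Among single genes, those with the smallest p and higher in HBOT included transcripts of oocytes, beside Vcam1, Arrb2 and Tnfaip8l2. Vcam1 (ENSMUSG00000027962), the endothelial adhesion molecule that holds leukocytes, was at 10.8, 11.1 and 11.9 FPKM in HBOT replicates 1, 2 and 3 and at 3.705, 5.42 and 5.53 in NC. Every HBOT library was above every NC library, and the CTX libraries (7.87, 7.87 and 6.92) lay between them. The log2 fold change was 1.08 (SE 0.15, adjusted p = 0.227 by limma, n = 3 each) and 1.09 (SE 0.16, adjusted p = 0.141) without HBOT replicate 2, so its size did not rest on that library. Arrb2, a beta-arrestin that uncouples activated receptors, was at 27.9, 28.3 and 33.9 against 19.8, 18.3 and 20.5 FPKM (0.59, and 0.63 without HBOT replicate 2), and CTX stood at 29.2, 27.7 and 27.8. Tnfaip8l2, which restrains immune receptor signalling, was at 3.09, 3.04 and 3.52 against 1.25, 1.62 and 1.38 (0.81 and 0.84). For all 3 of these genes the HBOT and CTX libraries lay above NC.

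The oocyte transcripts in this group came from several families. Nlrp5 (ENSMUSG00000015721), part of the maternal complex beneath the egg membrane, was at 26.7, 29.9 and 24.7 FPKM in HBOT and 14.4, 10.8 and 12.7 in NC (1.05, SE 0.17, adjusted p = 0.227 by limma, and 0.98 without HBOT replicate 2). Its relative Nlrp4a was at 5.64, 6.87 and 6.11 against 3.23, 2.59 and 3.59 (0.81 and 0.74). Tcl1b1, of a family transcribed in oocytes and early embryos, was at 8.16, 8.18 and 9.86 against 3.797, 2.68 and 4.77 (1.05 and 1.09). By the naming rule, no HBOT library of these genes reached down to the NC range. Fbxw24 (0.95 and 0.903), an F-box protein gene, Umodl1 (1.24 and 1.404), Ftdc1 (0.83 and 0.84) and Dpysl5 (1.17 and 0.98), a cytoskeleton regulator of the collapsin response family, complete the 10. Fbxw24, Nlrp4a and Tcl1b1 have close copies in the genome, so their share of reads is uncertain. All 10 kept a log2 fold change of at least 0.63 without HBOT replicate 2.

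Genes lower in HBOT with the smallest p were led by Tgoln1 (ENSMUSG00000056429), a protein of the trans-Golgi network, at 33.3, 33.9 and 35.1 FPKM in HBOT and 48.9, 48.7 and 52.4 in NC (-0.54, SE 0.091, adjusted p = 0.227 by limma, and -0.53 without HBOT replicate 2). The replicates of each group lay close together, and CTX (33.1, 34.2 and 38.05) was near HBOT. Smarca1, the ATPase of an ISWI chromatin remodelling complex, was at 42.0000, 35.5 and 41.8 against 62.7, 65.6 and 64.1 (-0.68 and -0.602). Cpe, the carboxypeptidase that trims prohormones, was at 368, 323 and 337 against 527, 654 and 484 (-0.68 and -0.64). As the naming rule required, HBOT and NC did not overlap for either gene.

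Maoa, the mitochondrial monoamine oxidase, was at 11.4, 9.17 and 13.4 FPKM in HBOT against 22.6, 20.03 and 27.1 in NC (-0.98 and -0.85). Capg, which caps actin filaments, was at 16.8, 15.3 and 19.8 against 35.8, 39.8 and 53.1 (-1.25 and -1.17). Xpnpep2, a membrane aminopeptidase, had the largest difference of the 10, at 0.338, 0.177 and 0.542 against 3.62, 4.13 and 9.75 (-2.24, and -2.14 without HBOT replicate 2). Its HBOT libraries were all under 1 FPKM, so it entered through NC alone and was lower by construction. The others were Slc44a3 (-0.99 and -0.87), of the choline transporter-like family, the sphingomyelin synthase Sgms2 (-0.89 and -0.79), Apmap (-0.88 and -0.74) and the endoplasmic reticulum peptidase Ermp1 (-0.61 and -0.603). All 10 were bound to remain lower without HBOT replicate 2, since they were named only where HBOT and NC did not overlap.

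Leaving out HBOT replicate 2 brought other genes to the front, of which H2-Q4, Cd74 and H2-D1 belong to antigen presentation. H2-Q4, a class I histocompatibility gene, was at 50.9, 24.2 and 57.1 FPKM in HBOT against 17.5, 15.4 and 19.3 in NC. Its replicate 2 stood nearest to NC, and the log2 fold change was 1.21 (SE 0.29) with it and 1.58 (SE 0.16, adjusted p = 0.126 by limma) without it. Ramp1, the subunit that turns the calcitonin receptor-like receptor into a receptor for CGRP, was at 9.04, 2.799 and 5.38 against 1.05, 1.48 and 1.77 (1.37 and 1.73), while CTX stood at 0.87, 0.73 and 1.01, below the NC range. Tgtp1, an interferon-inducible GTPase with the near-identical copy Tgtp2, was at 11.8, 6.24 and 15.5 against 2.51, 2.48 and 3.21 (1.63 and 1.96). Clca3a1 was at 0.84 with and 1.02 without replicate 2. In each of these genes HBOT replicate 2 was the HBOT library closest to NC.

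On the lower side, the same fit put forward the zinc finger gene Zfp605 at 0.873, 2.702 and 1.28 FPKM in HBOT against 3.73, 3.59 and 3.02 in NC (-0.82, and -1.102 without HBOT replicate 2). CTX was at 4.04, 3.21 and 3.65, within or above the NC range. Mlxipl, a transcription factor that responds to glucose, was at 5.57, 7.57 and 4.66 against 11.2, 12.3 and 9.56 (-0.81 and -0.97). Ccpg1, a receptor for turnover of the endoplasmic reticulum, was at 31.3, 15.4 and 33.2 against 41.8, 41.8 and 40.5, and its log2 fold change of -0.69 came to -0.35 without replicate 2, which was far below the other HBOT libraries. Cplx1 (-1.38 and -1.68), a regulator of vesicle fusion, the sphingomyelin synthase Sgms1 (-0.35 and -0.42) and Pyroxd2 (-0.94 and -0.71) were the others.

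**Figure D2:**
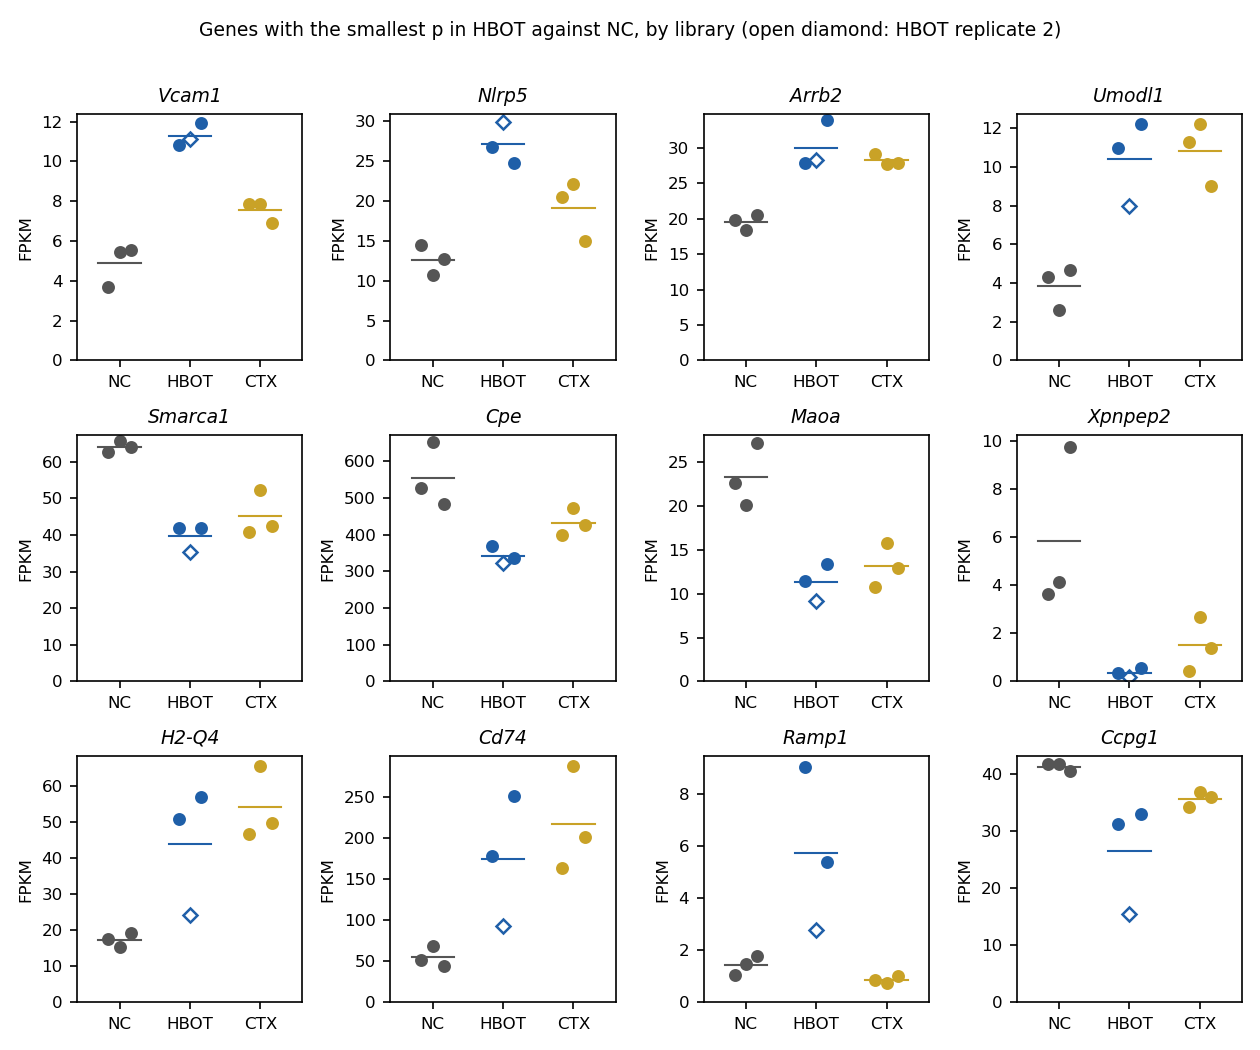
FPKM of 12 of the named genes in each library (y axis, FPKM, starting at 0) by group (x axis), with bars at the group means and HBOT replicate 2 as an open diamond. Top row genes are higher in all HBOT libraries than in any NC library and the middle row lower, as the naming rule required. In the bottom row HBOT replicate 2 is the lowest HBOT library.

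Lists of genes for ovarian cells, blood cells and pathways were read beside these values. Of 655 listed genes 576 were tested, 75 were below the filter and 4 had no matching symbol and are not analysed here, and none of the 576 was called in either fit. Counts of lists therefore give direction and separation only, to be read against 47.3% of all genes higher in HBOT and 10.8% and 9.67% not overlapping. In bulk tissue, fewer cells of a type and less RNA per cell cannot be told apart.

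Oocyte genes were higher in HBOT. Of 25 listed and tested genes, 23 had a higher mean, 22 did not overlap with NC, and 0 were separated the other way. The median log2 fold change was 0.78, and 0.74 without HBOT replicate 2, when 24 were higher. The mean log2(FPKM + 1) of the list was at 4.26, 4.25 and 4.23 in HBOT and 3.75, 3.34 and 3.65 in NC. In CTX it was at 4.26, 4.33 and 3.83. Gdf9, the oocyte growth factor that drives follicle development, was at 68.9, 83.7 and 77.9 FPKM in HBOT and 43.6, 28.3 and 43.2 in NC (76.8 ± 7.49 against 38.4 ± 8.74, SD, n = 3). All HBOT libraries were above NC, and replicate 2 was the highest of them. Its log2 fold change was 1.01 (SE 0.21, adjusted p = 0.237 by limma) and 0.94 without HBOT replicate 2, with CTX at 76.03, 76.1 and 51.3. Its partner Bmp15 was at 19.9, 22.9 and 19.7 against 10.8, 9.36 and 11.8 (0.91 and 0.84). H1f8, the linker histone of the oocyte, was at 44.4, 50.3 and 46.4 against 26.8, 19.1 and 25.6 (0.96 and 0.92).

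The egg coat genes were also higher. Zp3, which encodes the coat protein that binds sperm, was at 63.1, 69.9 and 59.3 FPKM in HBOT and 34.1, 23.2 and 36.8 in NC (1.03, SE 0.22, and 0.97 without HBOT replicate 2). Zp1 stood at 0.95 and 0.93 and Zp2 at 0.76 and 0.71. For all 3 coat genes the lowest HBOT library was above the highest NC library. Maternal factors read by the early embryo were higher as well, with Nlrp14 at 49.4, 57.4 and 47.7 against 31.6, 22.4 and 29.6 (0.87 and 0.79) and Dppa3 at 16.2, 21.002 and 18.6 against 12.8, 12.004 and 10.6 (0.61 and 0.52). The exceptions were a pair of transcription factors and a receptor. Sohlh1, a factor of early oocyte differentiation, was at 0.439, 0.497 and 1.01 against 1.48, 1.28 and 0.419 (-0.296 and -0.23), and Figla, which switches on the Zp genes, was at 1.49, 1.099 and 0.908 against 1.24, 0.818 and 1.15 (0.063 and 0.081), both overlapping. Kit, the oocyte receptor for stem cell factor, was at 21.1, 4.38 and 17.9 against 13.2, 14.5 and 15.6. Its mean was lower only through HBOT replicate 2 (-0.24, and 0.41 without it).

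The promoter of Zp3 is shown since the FIGLA protein binds E-boxes of the form CANNTG ahead of the egg coat genes. The 250 bases before its start (RefSeq, GRCm38.p6, chr5:135979855-135980104, strand plus) hold 1 palindromic E-box, CACGTG, in capitals, its first base 181 bases from the start:
Zp3 promoter: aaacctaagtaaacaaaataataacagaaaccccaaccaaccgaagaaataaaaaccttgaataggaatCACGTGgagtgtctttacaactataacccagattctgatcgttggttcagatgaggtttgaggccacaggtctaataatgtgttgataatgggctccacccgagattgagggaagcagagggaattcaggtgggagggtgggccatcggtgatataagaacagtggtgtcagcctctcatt
CACGTG occurs on either strand in 6.02% of 32851 mouse promoters of that length. Of 17 oocyte genes with a promoter in the table, 3 hold it (Sohlh1, Tle6 and Zp3), and 15 hold the wider CANNTG, which includes CACGTG and occurs in 66.2% of all. A match describes the letters only.

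**Figure D3:**
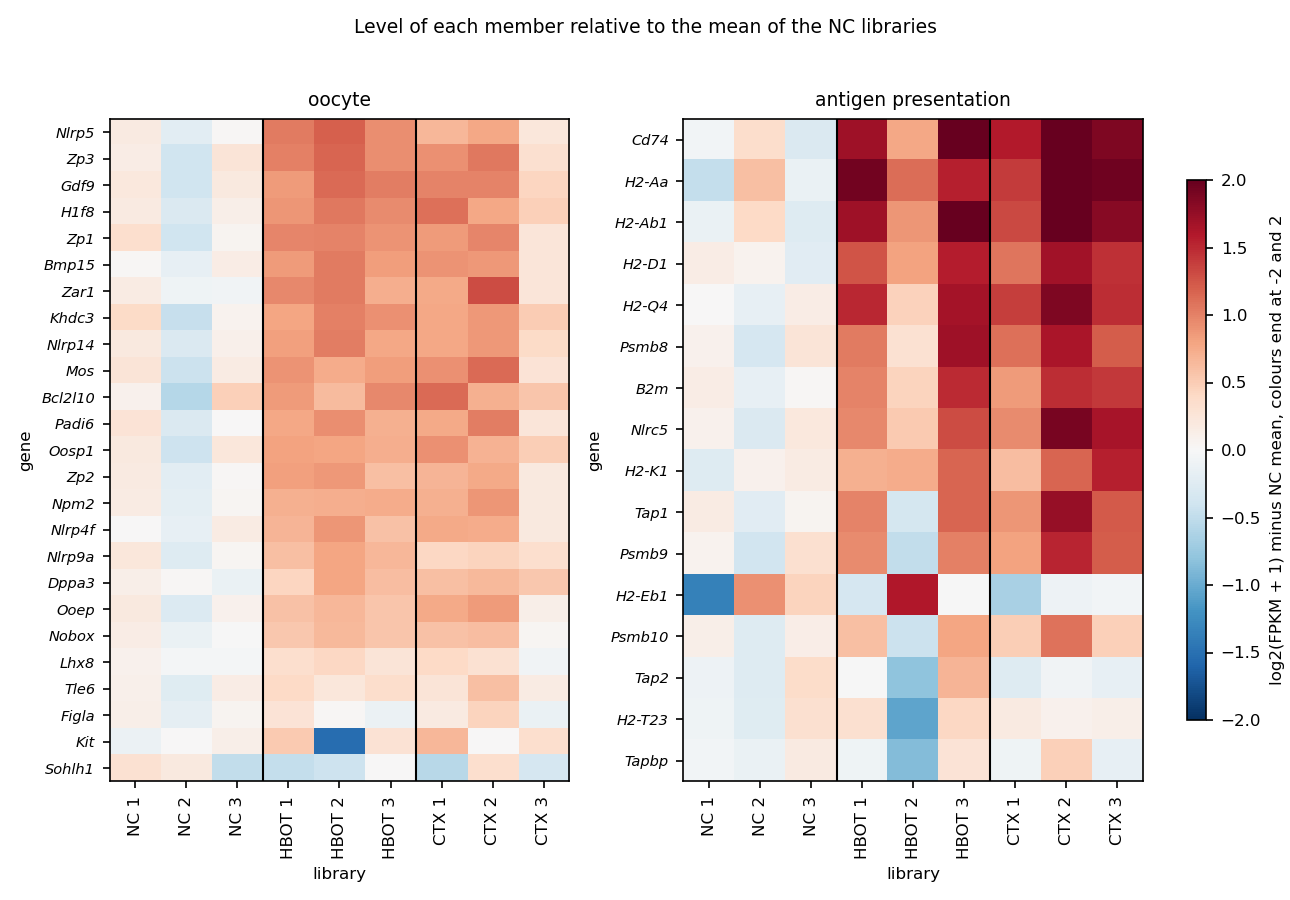
Heat map of every tested member of the oocyte list (left) and antigen presentation list (right), in rows, against the 9 libraries, in columns, with colour for log2(FPKM + 1) minus the NC mean. Most oocyte genes are above the NC mean in all 3 HBOT libraries, and for most antigen presentation genes HBOT replicate 2 is the HBOT column closest to or below NC.

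Genes of primordial and early germ cells, a list that shares Nobox, Lhx8, Figla, Sohlh1 and Kit with the oocyte list, had smaller differences. Of 16 listed, 12 were tested, 8 had a higher mean in HBOT and 5 did not overlap, with a median log2 fold change of 0.22 and 0.33 without HBOT replicate 2. Ddx4, the RNA helicase of germ cells, was at 2.71, 2.53 and 1.83 FPKM against 1.87, 1.69 and 1.09 (2.36 ± 0.467 against 1.55 ± 0.409, SD, 0.399, and 0.36 without HBOT replicate 2), and the groups overlapped. Nobox, a homeobox factor of early follicles, was at 9.94, 10.7 and 10.03 against 7.26, 5.79 and 6.48 (0.58 and 0.55), and Lhx8, another factor of the oocyte, at 2.84, 3.05 and 2.64 against 2.21, 1.95 and 1.96 (0.34 and 0.301). Tdrd1, of the piRNA pathway, was at 3.32, 3.65 and 3.09 against 2.34, 2.18 and 2.26 (0.41 and 0.37). HBOT and NC did not overlap for Nobox, Lhx8 and Tdrd1, and their size did not rest on HBOT replicate 2. Foxo3, which keeps primordial follicles at rest, was at 13.8, 6.996 and 12.9 against 11.7, 11.7 and 13.5. Its log2 fold change was -0.17 (SE 0.22) and turned to 0.11 without HBOT replicate 2, where it was lowest.

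Granulosa genes were divided. Of 20 tested, 11 were higher and 9 lower in HBOT (median 0.096), and 16 were higher without HBOT replicate 2 (median 0.26). Without overlap, 2 of the 20 lay above NC and 1 below it, against 10.8% and 9.67% of all genes. Amh, the hormone of growing follicles used as a marker of ovarian reserve, was at 219, 312 and 179 FPKM against 76.5, 73.2 and 128 (237 ± 68.5 against 92.5 ± 30.6, SD, n = 3). No HBOT library overlapped NC, while the CTX libraries ran from 97.7 to 414 FPKM across both. The log2 fold change of Amh was 1.35 (SE 0.48, adjusted p = 0.363 by limma) and 1.14 (SE 0.53) without HBOT replicate 2. Slc18a2, a vesicular monoamine transporter, was at 87.2, 80.04 and 61.3 against 20.1, 35.3 and 42.7 (1.24 and 1.201), and CTX at 61.6, 28.6 and 38.4. Nr5a2, a nuclear receptor required for ovulation and luteal function, was lower, at 79.1, 41.2 and 59.8 against 154, 88.5 and 86.8 (-0.85 and -0.61).

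The gonadotropin and estrogen genes varied between HBOT libraries. Fshr, the receptor for follicle-stimulating hormone, was at 23.7, 6.78 and 13.8 FPKM in HBOT against 10.5, 10.7 and 10.5 in NC (14.7 ± 8.49 against 10.6 ± 0.13, SD). Replicate 2 was below all NC libraries and the others above them, giving 0.29 (SE 0.42) with it and 0.72 (SE 0.34) without it. Cyp19a1, the aromatase that makes estrogens, was at 55.3, 5.56 and 15.1 against 3.35, 7.69 and 4.74 (1.59, SE 0.91, and 2.33, SE 0.901, without HBOT replicate 2). Only replicate 2 of HBOT lay within the NC range of Cyp19a1. Inhbb, an activin and inhibin subunit, was at 132, 13.2 and 57.9 against 108, 147 and 177 (-1.57 and -0.68), lowest in HBOT replicate 2.

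Steroidogenic genes were lower in HBOT for 12 of 15 (median -0.34, and -0.54 with 10 of 15 lower without HBOT replicate 2). Cyp17a1, which makes androgens in theca cells, went against the list at 698, 685 and 283 FPKM against 119, 62.7 and 28.97 (3.07, SE 1.22, and 2.86 without HBOT replicate 2). All 3 HBOT libraries exceeded NC, while CTX scattered at 511, 12.3 and 300.1. Hsd3b1, which forms progesterone from pregnenolone, was at 2284, 991 and 2448 against 4119, 3719 and 2651 (-0.96 and -0.54). Fdxr, the reductase that feeds electrons to mitochondrial P450 enzymes, was at 217, 101 and 264 against 369, 343 and 333 (-0.95 and -0.54). For both, every HBOT library was below NC, replicate 2 was the lowest, and the difference was smaller without it. Cyp11a1, the enzyme that starts steroid synthesis from cholesterol, was at 2011, 1891 and 3062 against 4275, 3725 and 2923 (-0.67 and -0.54), with overlap through HBOT replicate 3. Star, which moves cholesterol into mitochondria, was at 58.1, 1876 and 376 against 478, 386 and 544 (770.1 ± 971 against 469 ± 79.2, SD). Replicate 2 was above and the others below every NC library, so the log2 fold change of -0.43 (SE 1.14) came to -1.64 (SE 0.93) without it.

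Corpus luteum genes were lower in HBOT for 9 of 11 tested, with a median log2 fold change of -0.94 and -0.84 (10 of 11 lower) without HBOT replicate 2. Parm1 was at 4.37, 13.04 and 5.59 FPKM against 21.2, 20.2 and 18.9 (-1.41 and -1.82), and Prlr, the prolactin receptor that sustains luteal cells, at 33.6, 28.6 and 38.5 against 76.1, 70.7 and 48.4 (-0.92 and -0.81). Neither overlapped with NC. Akr1c18, the enzyme that inactivates progesterone, was at 194, 418 and 2848 against 2509, 2464 and 2127 (-1.94 and -1.66). HBOT replicate 3 was above every NC library and the others far below, while all CTX libraries were low (289, 125 and 153). Ldhb, a lactate dehydrogenase subunit, went against the list at 236, 270.000 and 257 against 154, 139 and 167 (0.73, SE 0.14, adjusted p = 0.227 by limma, and 0.69 without HBOT replicate 2). The mean log2(FPKM + 1) of the list ran from 5.32 to 6.14 in HBOT and from 6.19 to 6.75 in NC, so HBOT replicate 3 came close to NC replicate 3. In CTX it ran from 4.94 to 6.12.

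For several programmes the direction of the difference depended on HBOT replicate 2. For the ovulation list, 6 of 14 genes passed the filter, and their median went from 0.302 to -0.27 when it was left out. Tnfaip6, which stabilises the matrix around the ovulating egg, was at 1.45, 188 and 1.596 FPKM in HBOT against 0.671, 1.65 and 0.499 in NC (2.501, SE 1.42, and 0.42, SE 0.25). Runx1, a transcription factor induced by the gonadotropin surge, was at 8.35, 87.1 and 9.16 against 9.23, 13.2 and 15.2 (0.61 and -0.45). Ptx3, a partner of Tnfaip6 in that matrix, was at 1.398, 15.6 and 0.823 against 1.43, 1.12 and 1.12 (0.91 and -0.087). Of the HBOT libraries only replicate 2 exceeded NC in Runx1 and stood far above it in Tnfaip6 and Ptx3. Immediate early genes, switched on within minutes of a stimulus, had a median of 0.23 with 11 of 17 higher, and -0.28 with 3 of 17 higher without that library. Ier3, a stress-induced survival gene, was at 10.9, 191 and 7.99 against 8.7999, 12.1 and 8.91 (1.34 and -0.066). Dusp1, a phosphatase that ends MAP kinase signalling, was lower in either fit, at 13.5, 31.4 and 11.5 against 173, 89.9 and 21.6 (-1.98 and -2.397), though NC itself spanned a wide range.

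Cholesterol synthesis genes depended on the same library. Of 19 tested, 10 were lower with a median of -0.046, and 16 were lower with a median of -0.55 once HBOT replicate 2 was left out. Dhcr7, which makes cholesterol in the last step of its pathway, was at 26.8, 70.5 and 57.8 FPKM against 169, 126 and 69.7 (-1.24, SE 0.81, and -1.51, SE 0.93). Mvd, which makes isopentenyl pyrophosphate for the pathway, was at 13.7, 17.8 and 19.4 against 52.3, 33.4 and 17.6 (-0.86 and -0.91). The groups overlapped in both through NC replicate 3, the lowest NC library.

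**Figure D4:**
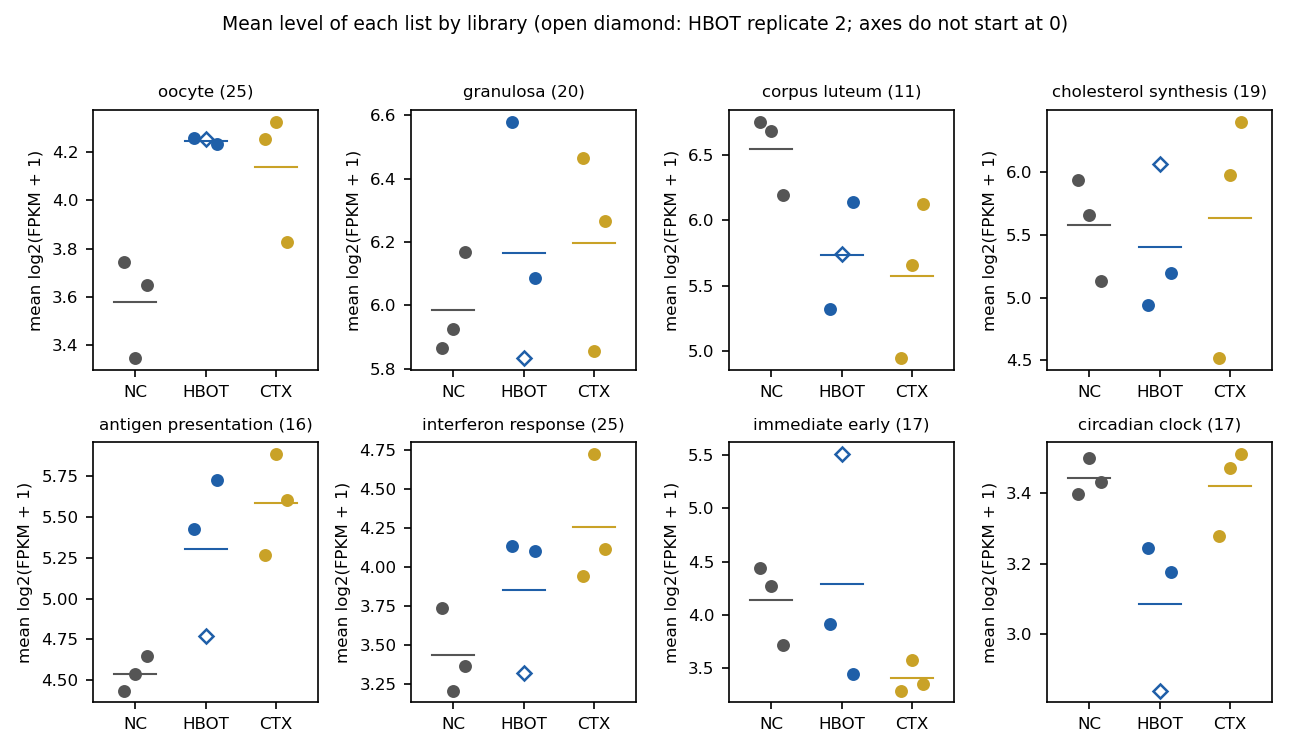
Mean log2(FPKM + 1) of 8 gene lists in each library (y axis, not starting at 0) by group (x axis), with bars at the group means and HBOT replicate 2 as an open diamond. The 3 HBOT libraries lie together for the oocyte list, and for the immediate early list replicate 2 lies above every NC library and the other HBOT libraries within or below the NC range.

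Antigen presentation genes were higher in HBOT for 13 of 16 tested, 9 of them without overlap, with a median log2 fold change of 0.902. Without HBOT replicate 2, 15 were higher and the median was 1.104. Class I molecules show peptides from inside a cell and are found on most cells, whereas class II molecules belong to specialised presenting cells. H2-D1 (ENSMUSG00000073411), a class I heavy chain, was at 316, 231 and 393 FPKM in HBOT and 147, 138 and 113 in NC (1.21, SE 0.22, adjusted p = 0.227 by limma, and 1.41 without HBOT replicate 2). H2-K1 (0.88 and 0.94) and the shared light chain B2m (0.97 and 1.24) were higher too, all 3 without overlap. Nlrc5, the transactivator of class I genes, was at 3.65, 2.46 and 4.93 against 1.56, 0.956 and 1.77 (0.93 and 1.13). Class I genes are near copies of each other, and how their reads were divided is uncertain.

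The largest differences of the list were in 3 genes of class II presentation. Cd74, the invariant chain that escorts class II molecules, was at 178, 93.2 and 251 FPKM against 51.9, 69.2 and 44.1 (1.55, SE 0.36, and 1.94, SE 0.27, without HBOT replicate 2). H2-Aa and H2-Ab1, the chains of the I-A molecule, were at 61.9, 34.9 and 47.6 against 10.9, 24.1 and 14.1 (1.53 and 1.74) and at 49.1, 27.6 and 61.1 against 13.1, 19.4 and 12.01 (1.53 and 1.85). Replicate 2 was the lowest HBOT library in all 3 and still above NC. H2-Eb1, of the I-E molecule, did not follow, at 2.74, 13.4 and 3.73 against 0.851, 7.898 and 5.45 (0.42 and -0.17). The peptide transporter Tap1 (0.604 and 1.08) and the immunoproteasome subunit Psmb9 (0.49 and 0.97) overlapped with NC only through HBOT replicate 2, whereas their partners Tap2 (-0.042 and 0.34) and Tapbp (-0.23 and 0.091) stood nearer to 0. In CTX, which shares its NC libraries with this comparison, Cd74 was at 164, 287 and 201 FPKM, in each library above HBOT replicate 2. The summed FPKM of the macrophage list ran from 274 to 509 in HBOT and from 193 to 270.2 in NC, and its 15 tested members held none at 0. Their part in the antigen presentation values was not tested.

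Histocompatibility promoters are shown since members of the list stood higher together, and the Y box, an inverted CCAAT element, is a shared element of class I and class II promoters that NF-Y binds beside the site of the NLRC5 and CIITA complexes. It was searched as CTGATTGG on both strands, a form chosen after the sequences were seen, and matches stand in capitals in the 250 bases before each start. In H2-D1 the match reads CCAATCAG. There the CCAAT is direct and not inverted, so that stretch matches the letters but not the orientation of a Y box. Upstream of it the H2-D1 promoter also holds ATTGG, an inverted CCAAT, which the longer searched form did not match and which is not in capitals. The promoters are from RefSeq on GRCm38.p6, at chr17:34287824-34288073 (strand minus, first base of the match 51 bases from the start), chr17:34305617-34305866 (strand plus, 62 bases) and chr17:35262844-35263093 (strand plus, 53 bases):
H2-Aa promoter: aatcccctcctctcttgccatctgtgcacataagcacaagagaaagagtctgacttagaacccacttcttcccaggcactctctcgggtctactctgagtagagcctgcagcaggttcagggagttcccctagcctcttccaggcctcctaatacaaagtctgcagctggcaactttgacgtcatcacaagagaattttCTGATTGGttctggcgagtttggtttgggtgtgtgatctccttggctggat
H2-Eb1 promoter: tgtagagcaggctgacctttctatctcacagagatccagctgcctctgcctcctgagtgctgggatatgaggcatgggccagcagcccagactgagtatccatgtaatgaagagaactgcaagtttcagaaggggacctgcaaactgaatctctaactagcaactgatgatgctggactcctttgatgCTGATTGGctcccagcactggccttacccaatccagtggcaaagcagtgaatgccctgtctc
H2-D1 promoter: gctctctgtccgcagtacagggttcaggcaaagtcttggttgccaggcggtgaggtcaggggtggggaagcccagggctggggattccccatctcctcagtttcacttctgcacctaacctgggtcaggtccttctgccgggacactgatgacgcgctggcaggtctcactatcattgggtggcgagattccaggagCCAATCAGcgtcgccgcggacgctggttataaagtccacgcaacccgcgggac
The letters occur, in either orientation, in 3.83% of all 32851 promoters. Of 12 list members with a promoter in the table, 6 hold them in either orientation (H2-Aa, H2-D1, H2-Eb1, H2-T23, Psmb9 and Tap1). The members that hold them differ in value. H2-Aa and H2-D1 were higher without overlap, and H2-Eb1 and H2-T23 (-0.102, and 0.37 without HBOT replicate 2) overlapped with NC.

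Interferon response genes were higher for 21 of 25 (median 0.34) and for 25 of 25 (median 0.61) without HBOT replicate 2. The mean log2(FPKM + 1) of the list was at 4.13, 3.32 and 4.1 in HBOT and 3.74, 3.21 and 3.36 in NC. In CTX it was at 3.94, 4.72 and 4.11. Igtp, an immunity-related GTPase, was at 17.5, 8.62 and 24.8 FPKM against 8.403, 5.65 and 6.69 (1.09 and 1.48), and Irgm1, of the same family, at 25.4, 17.9 and 32.3 against 16.6, 10.9 and 14.6 (0.78 and 0.997). Rtp4 was at 14.7, 13.5 and 14.6 against 12.01, 6.88 and 7.28 (0.69 and 0.73). All 3 were without overlap, and NC replicate 1 was the NC library nearest to HBOT in each. Isg15, a ubiquitin-like protein, was at 17.1, 13.3 and 10.95 against 12.9, 4.27 and 5.55 (0.898 and 0.91), overlapping through that library. Irf9, part of the factor that binds interferon response elements, was at 22.1, 22.7 and 22.3 against 21.5, 15.2 and 14.2 (0.403 and 0.39).

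Blood and immune cell markers were higher in HBOT, in part through the filter. All 6 tested erythroid genes of 10 listed were higher (median 1.92, and 1.51 without HBOT replicate 2). The globin Hba-a1 was at 145, 319 and 145 FPKM against 31.8, 44.1 and 89.3 (1.89 and 1.52) and Hbb-bs at 121, 258 and 113 against 21.4, 35.8 and 73.1 (1.96 and 1.58). Replicate 2 held the most globin of the HBOT libraries, and near-identical copies make the division of globin reads uncertain. In CTX, Hba-a1 was at 258, 186 and 370 FPKM and Hbb-bs at 188, 132 and 292, also above every NC library. Of 12 neutrophil genes 5 were tested, and all were under 1 FPKM in every NC library, so they entered through HBOT and their count is no support. The other list members, among them Ly6g, Mpo and Elane, were too low to test. Csf3r, the receptor for granulocyte colony-stimulating factor, had the smallest p of all genes, with 2.89, 3.34 and 2.54 against 0.563, 0.877 and 0.3995 (1.29, SE 0.16, adjusted p = 0.227 by limma, and 1.21 without HBOT replicate 2). It was not among the 10 since its mean was under 2 FPKM. The cytokine Il1b was at 1.203, 2.98 and 1.77 against 0.198, 0.784 and 0.0982 (1.12 and 0.89). S100a9, a calgranulin of neutrophils, was at 20.2, 14.9 and 5.802 against 0.603, 0.917 and 0.392 (3.02 and 2.89).

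Macrophage genes were higher for 14 of 15 (median 0.44, and 0.62 without HBOT replicate 2), with 5 not overlapping. C1qb and C1qc, subunits of the first complement component, were at 27.6, 27.8 and 43.4 against 19.1, 21.3 and 17.5 FPKM (0.72 and 0.82) and at 29.9, 23.4 and 43.6 against 19.4, 20.8 and 23.2 (0.55 and 0.75). Fcer1g, an adapter of Fc receptors, was at 11.6, 14.1 and 26.7 against 8.97, 7.82 and 8.504 (0.89 and 0.99). HBOT replicate 3 was the highest library of the 6 for all 3. Tyrobp, the adapter that pairs with such receptors, was at 23.7, 16.3 and 26.6 against 10.7, 16.8 and 12.9 (0.67 and 0.87), and the macrophage surface protein Adgre1 at 3.18, 1.498 and 4.95 against 1.96, 2.01 and 1.804 (0.44 and 0.77). Both overlapped with NC through HBOT replicate 2. Lymphocyte markers were mostly below the filter, with 3 of 16 T and NK cell genes tested and 1 of 10 B cell genes. The chemokine Ccl5 was at 3.78, 1.297 and 4.28 against 0.824, 0.741 and 1.24 (1.01 and 1.38), and the immunoglobulin joining chain Jchain at 1.24, 1.71 and 2.34 against 0.806, 1.55 and 0.456 (0.53 and 0.54), with slight separation in Ccl5 and overlap in Jchain.

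Matrix genes were balanced, with 11 of 24 higher (median -0.056, and -0.11 without HBOT replicate 2). Ccn2, a matricellular target of YAP and TGF-beta signalling, was at 71.3, 46.4 and 48.6 FPKM against 29.3, 24.2 and 31.01 (0.93, SE 0.23, adjusted p = 0.261 by limma, and 1.04 without HBOT replicate 2), with no overlap. Elastin, Eln, was at 7.33, 5.43 and 5.86 against 7.38, 8.98 and 11.2 (-0.49 and -0.41). The proteoglycan Bgn was at 149, 95.8 and 171 against 189, 208 and 241 (-0.65 and -0.405), lowest in replicate 2. Among proteases and their inhibitors (median 0.045 and 0.045), the metalloproteinase inhibitor Timp4 was at 0.145, 0.0435 and 0.368 against 1.896, 1.42 and 1.56 (-1.15 and -1.07). Every HBOT library of Timp4 was under 1 FPKM, so it entered through NC alone. Plau, the urokinase, was at 37.6, 535 and 36.1 against 39.3, 45.4 and 53.2 and turned from 0.97 to -0.300 without replicate 2.

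Of 18 TGF-beta signalling genes 5 lay above NC without overlap, against 10.8% of all genes (list median 0.11 and 0.13). Smad3, which carries the receptor signal to the nucleus, was at 24.9, 47.01 and 21.5 FPKM against 18.5, 20.2 and 21.1 (0.54, and 0.21 without HBOT replicate 2). Tgif1, a repressor of that signal, was at 87.8, 129.9 and 81.04 against 69.7, 67.5 and 79.3 (0.43 and 0.23). Both were highest in replicate 2 and the log2 fold changes were smaller without it. Tgfb2, a ligand, was at 3.46, 3.37 and 3.05 against 2.36, 2.77 and 2.12 (0.33 and 0.32), and the ligand Tgfb1 overlapped (30.6, 37.2 and 28.9 against 23.2, 28.02 and 29.1).

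Among smooth muscle and pericyte genes, 3 lay above NC and 2 below it without overlap, against 10.8% and 9.67% of all genes. The contractile genes Cnn1, at 11.1, 13.8 and 8.08 FPKM against 5.74, 5.29 and 6.18 (0.804 and 0.64), Actg2, at 55.6, 61.2 and 38.6 against 30.1, 24.2 and 35.9 (0.76 and 0.63), and Acta2, at 302, 233 and 219 against 172, 161 and 200.3 (0.49 and 0.54), were higher without overlap. The receptor Notch3, which maintains mural cells, was lower, at 5.33, 3.38 and 3.76 against 5.57, 7.23 and 5.41 (-0.46 and -0.35). Of 15 tested genes 9 were higher (median 0.083 and 0.13). Endothelial genes had a median of -0.087, and 0.025 without HBOT replicate 2, with 5 of 18 higher. Sox18, an endothelial transcription factor, was at 28.9, 28.5 and 22.5 against 20.2, 20.96 and 21.04 (0.34 and 0.29), above NC, and Flt1, a receptor for vascular endothelial growth factor, at 3.96, 4.49 and 3.39 against 5.47, 4.72 and 4.58 (-0.26 and -0.34), below it. Vegfa, the main vessel growth factor, was at 54.6, 87.8 and 62.95 against 105, 101 and 57.8 (68.4 ± 17.3 against 87.7 ± 25.96, SD, -0.33, and -0.53 without HBOT replicate 2), with overlap. Among surface epithelium genes (median -0.16 and -0.29), Lgr5, a stem cell receptor, was at 11.9, 3.45 and 16.04 against 17.7, 19.1 and 19.5 (-0.99 and -0.41), and CTX at 5.82, 2.89 and 2.72. Of the oviduct and uterine epithelium list 5 of 14 genes were tested (median 0.15 and 0.031) and of the adipocyte list 6 of 14 (median -0.16 and 0.00598).

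Genes of DNA damage and cell death, which alkylating drugs are known to engage, had list medians near 0. The median log2 fold change was 0.042 for 21 p53 targets, -0.031 for 21 apoptosis genes, 0.031 for 26 repair genes and 0.0703 for 22 genes of cell division. Without HBOT replicate 2 these were -0.013, 0.085, 0.047 and 0.0028. The p53 target and cell cycle inhibitor Cdkn1a was at 22.3, 35.9 and 13.04 FPKM against 15.1, 19.5 and 21.4 (23.8 ± 11.5 against 18.7 ± 3.25, SD, 0.24, and -0.11 without HBOT replicate 2), overlapping, while all CTX libraries were below NC (8.48, 10.7 and 7.12). Perp, a p53 target in cell adhesion and death, was at 17.7, 18.2 and 9.24 against 5.85, 7.85 and 8.84 (0.88 and 0.72), and the death receptor Fas at 2.65, 3.01 and 2.28 against 0.939, 1.85 and 1.77 (0.55 and 0.48). Bid, which links death receptors to mitochondria, was at 8.22, 6.62 and 6.69 against 3.82, 4.79 and 4.72 (0.59, SE 0.16, and 0.63). For these 3 genes every HBOT library was above every NC library. Sesn2, a stress-induced regulator of growth signalling, was at 8.73, 6.33 and 8.77 against 5.94, 6.11 and 5.08 (0.404 and 0.54), and the recombination protein Brca2 at 5.56, 4.42 and 4.95 against 3.94, 3.498 and 3.703 (0.34 and 0.41), neither resting on replicate 2. Xiap, a caspase inhibitor, was at 13.96, 9.59 and 13.004 against 14.8, 15.7 and 16.6 (-0.36 and -0.21). The proliferation marker Mki67 was at 11.1, 11.3 and 8.08 against 9.47, 8.801 and 14.9 (10.1 ± 1.79 against 11.1 ± 3.34, SD, -0.092 and -0.17).

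DNA replication genes were higher for 22 of 24, with a median of 0.23 that came to 0.075 without HBOT replicate 2. Mcm5, of the replicative helicase, was at 17.7, 37.2 and 17.8 FPKM against 13.9, 14.5 and 19.8 (0.49 and 0.15). Gins2, another helicase subunit, was at 6.85, 6.51 and 6.86 against 3.03, 5.23 and 4.94 (0.54 and 0.57) and did not rest on replicate 2. Among 19 cell cycle inhibitors and stress genes, 3 lay above NC and 3 below it without overlap, against 10.8% and 9.67% of all genes. Cdkn2d, an inhibitor of CDK4 and CDK6, was at 5.67, 4.68 and 7.16 against 9.57, 8.43 and 9.699 (-0.59 and -0.47). Gadd45a, induced by growth arrest and DNA damage, was at 45.6, 49.03 and 91.1 against 128, 99.2 and 123 (-0.97 and -0.84), with all CTX libraries lower still (25.97, 31.7 and 40.7). Cdkn2b, another CDK inhibitor, was at 8.501, 11.9 and 29.7 against 48.6, 28.8 and 39.4 (-1.33 and -1.19), overlapping through HBOT replicate 3, with CTX at 4.59, 3.32 and 2.801. Nupr1, a stress-induced chromatin protein, was at 79.3, 106 and 151 against 176, 203 and 196 (-0.81 and -0.796). Gadd45g, of the same family as Gadd45a, was higher, at 23.8, 39.7 and 22.5 against 15.6, 18.7 and 15.2 (0.72 and 0.47). The list as a whole turned from 0.14 to -0.11 without HBOT replicate 2.

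Values of antioxidant genes cannot be assigned to the oxygen or to the drug in this comparison. Of 22 tested, 14 were lower in HBOT (median -0.051, and -0.15 without HBOT replicate 2). Hmox1, the heme oxygenase induced by oxidative stress, was at 40.8, 26.97 and 42.5 FPKM against 34.2, 34.9 and 40.2 (36.8 ± 8.53 against 36.5 ± 3.25, SD). Its log2 fold change was -0.012 (SE 0.18), turned to 0.19 without HBOT replicate 2, and its sign also differed between scalings, between -0.0397 and 0.0031. Gclc, the rate-limiting enzyme of glutathione synthesis, was at 34.8, 126 and 40.7 against 28.01, 30.8 and 22.9 (1.03 and 0.46), without overlap but led by replicate 2. Gpx1, a glutathione peroxidase, was at 145, 114 and 209.7 against 257, 212 and 237 (-0.63 and -0.43), and the mitochondrial superoxide dismutase Sod2 at 19.1, 18.9 and 13.4 against 31.8, 29.997 and 19.3 (-0.62 and -0.69), and both lay below NC in every library. Gpx4, which guards against lipid peroxidation, was at 167, 175 and 169 against 209, 211 and 189.97 (-0.25 and -0.27).

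Enzymes that detoxify alkylating drugs and aldehydes had a median of 0.0037 (near 0, with its sign depending on scaling), and 0.11 without HBOT replicate 2. The glutathione transferase Gsta4 was at 146, 167 and 136 FPKM against 68.2, 66.3 and 105 (0.93 and 0.85). Mgst2, a microsomal member, was at 31.4, 8.75 and 37.5 against 64.4, 53.98 and 60.1 (-1.39 and -0.77), and replicate 2 was lowest. Iron genes were lower for 9 of 13 (median -0.28 and -0.27). Aifm2, the FSP1 protein that suppresses ferroptosis, was at 13.9, 8.44 and 19.2 against 25.7, 23.7 and 25.4 (-0.87, SE 0.24, and -0.58), and the metalloreductase Steap3 at 19.2, 14.3 and 23.2 against 29.4, 23.8 and 38.5 (-0.66 and -0.49). The ferritin heavy chain Fth1 went the other way, at 729, 797 and 992 against 705, 687 and 715 (0.25 and 0.28).

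Hypoxia and glycolysis genes were centred on 0 (median -0.0019 over 23 genes, between -0.0295 and 0.0117 under other scalings, and -0.12 without HBOT replicate 2). Of the 23, 4 lay below NC without overlap and 0 above, against 9.67% and 10.8% of all genes. Bnip3, a mitophagy receptor induced by HIF-1, was at 37.4, 9.999 and 38.9 FPKM against 65.04, 55.9 and 66.01 (-1.301, SE 0.45, and -0.69, SE 0.19, without HBOT replicate 2). Pfkp, a phosphofructokinase, was at 13.6, 15.2 and 9.68 against 27.1, 36.9 and 18.3 (-1.01 and -1.14), and Pfkfb3, which makes its activator, at 6.11, 6.98 and 5.32 against 9.901, 15.1 and 9.14 (-0.77 and -0.85). Aldoa, an aldolase, was at 454, 421 and 481 against 608, 571 and 545 (-0.35 and -0.296). Of these genes, only Bnip3 owed much of its difference to replicate 2. The glucose transporter Slc2a1 was at 9.67, 55.04 and 9.51 against 9.75, 12.1 and 9.77 and turned from 0.68 to -0.12 without it.

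Transcripts encoded by mitochondria were higher for 13 of 13, with a median log2 fold change of 0.25 and 0.23 without HBOT replicate 2, and 7 did not overlap. They made up 9.69 ± 0.574% of all FPKM in HBOT and 8.27 ± 0.609% in NC (SD, n = 3, exact two-sided permutation p = 0.1, the smallest that 3 against 3 libraries allow), and 9.42% without HBOT replicate 2 (exact permutation p = 0.2, likewise the smallest). mt-Co3, a core subunit of cytochrome oxidase, was at 3300.4, 3657 and 3871 FPKM against 2924, 2467 and 2896 (0.39, SE 0.13, and 0.38). These 13 share 1 polycistronic transcript system and the same total, and are not independent. The nuclear genes of the respiratory chain had 16 of 23 lower, with a median of -0.091 (-0.016 without HBOT replicate 2). Uqcrfs1, the iron-sulfur subunit of complex III, was at 63.2, 54.6 and 65.3 against 77.6, 76.2 and 67.6 (-0.27 and -0.19). Heat shock genes were higher for 14 of 16 (median 0.22 and 0.15). Only 1 of the 16 lay above NC without overlap, against 10.8% of all genes. It was their master factor Hsf1, at 34.04, 40.7 and 34.7 against 28.3, 33.8 and 29.2 (0.25 and 0.17).

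Clock genes were divided. The clock runs on activators of the CLOCK and BMAL1 family, their repressors PER and CRY, and a second loop of ROR activators and REV-ERB repressors. Of 17 tested, 4 lay below NC and 2 above it without overlap (median -0.26, and -0.105 without HBOT replicate 2). Over all genes 9.67% lay below and 10.8% above, so the 2 above were near that share. Nr1d1, which encodes REV-ERB alpha, was at 23.1, 3.995 and 18.4 FPKM against 51.2, 40.8 and 57.1 (-1.92, SE 0.56, and -1.21, SE 0.33, without HBOT replicate 2). Nr1d2 was at 22.4, 9.76 and 16.4 against 26.6, 27.9 and 30.8 (-0.84 and -0.54). In both, replicate 2 was lowest and the other HBOT libraries were still below NC. The activators Rora, at 3.32, 1.96 and 3.804 against 8.83, 11.7 and 5.65 (-1.25 and -1.04), and Npas2, at 0.651, 0.421 and 0.578 against 3.21, 2.97 and 1.07 (-1.07 and -1.01), were lower. Npas2 was under 1 FPKM in all HBOT libraries, so it entered through NC alone and was lower by construction. The repressors Per2, at 5.002, 5.73 and 6.11 against 2.48, 4.13 and 3.39 (0.63 and 0.61), and Cry1, at 8.77, 14.9 and 7.22 against 5.98, 6.07 and 4.89 (0.71 and 0.44), were higher. The sources used here give no hour of collection, and its part was not tested.

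**Figure D5:**
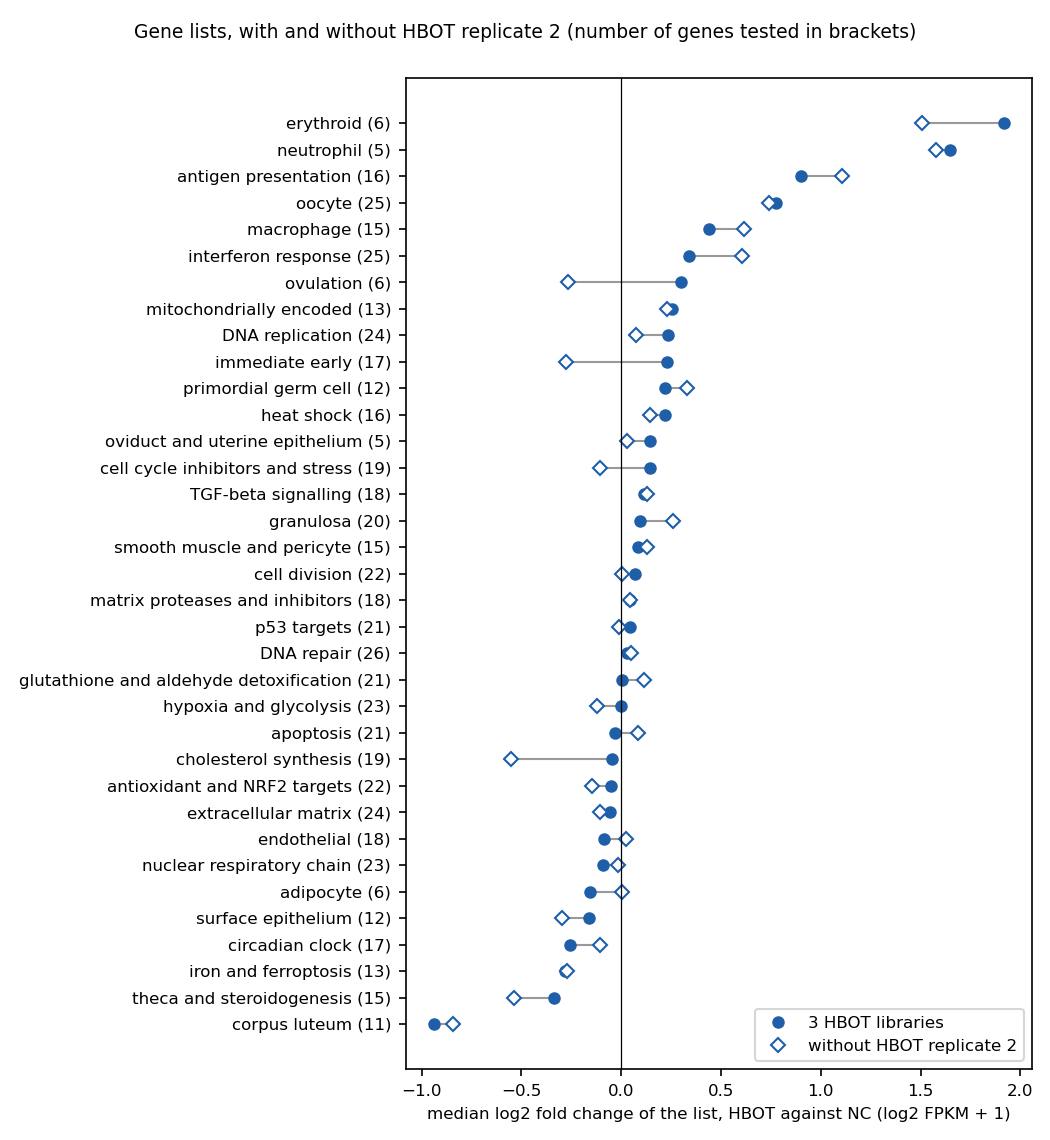
Median log2 fold change of HBOT against NC (x axis) for each gene list with at least 5 tested genes (y axis, number tested in brackets), over 3 HBOT libraries (filled circles) and without HBOT replicate 2 (open diamonds). The oocyte and corpus luteum lists have both marks close together and away from 0, the neutrophil genes entered through HBOT alone and had to be higher, and the ovulation and immediate early lists cross 0.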

How the data were processed

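Ovary RNA from 3 groups of 3 libraries (NC, CTX and HBOT) was sequenced after oligo(dT) selection, per the labels' protocols. The authors deposited 1 table of FPKM per gene, of 22544 genes and assembled loci. Reads were trimmed with fastp 0.23.4 and the build was GRCm39, per the submitters' processing notes, while the sources used here name no aligner or counting tool. FPKM keeps no read counts, so depth per sample is unknown and no count model was used.

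Genes reaching 1 FPKM in 3 or more of the 6 HBOT and NC libraries were kept and tested as log2(FPKM + 1) with limma 3.58.1 (R 4.3.3, eBayes with trend), on all 9 libraries so that 3 groups share the estimate of spread. The contrast was HBOT minus NC, with Benjamini-Hochberg adjustment across the 13044 genes. The same fit was run without HBOT replicate 2, which leaves its group 2 libraries. The fits were tested on simulated data. Alternatives covered the pseudocount, filters, scalings, library weights, a replicate block and each library left out. Members and gene lists were chosen with earlier results of these data known.

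Genes were named by rule: the 10 with the smallest p in each direction (established symbol, mean of at least 2 FPKM, groups not overlapping), 6 more in each direction without HBOT replicate 2, 12 genes of ovarian function, and up to 4 members of a list with the smallest p, with members against its direction. Other genes, such as H2-K1, Igtp, Rora, Plau and Slc2a1, were chosen after their values were seen. Promoter sequences are from RefSeq on GRCm38.p6, another build than that of the deposited table.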

Additional observations from a re-analysis of the deposited data

How the results depend on the processing

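The count of called genes, 0 in the report, was also 0 under a pseudocount of 0.1, a filter of 5 FPKM, a filter over all 9 libraries, TPM, median-of-ratios and quantile scaling, the 6 libraries alone, eBayes without trend or with robust estimation, and was 1 with no filter on low values (an assembled locus, lower), 174 with library weights and 5 with the 6 libraries alone and HBOT replicate 2 left out (Nnat, Tgtp1, Tgtp2 and H2-Q4 higher, Parm1 lower). Leaving out 1 library gave 0 to 2 calls (limma), B3gnt2 and Qpct lower without HBOT replicate 3, Rpl26 lower without NC replicate 1 and Mndal higher without NC replicate 3. At an unadjusted p under 0.05, leaving out 1 library gave 481 to 1130 higher and 368 to 1158 lower genes, the fewest without NC replicate 1 (481 and 373) and NC replicate 2 (509 and 368). Other settings gave 528 higher (filter of 5 FPKM, with fewer genes tested), 1964 higher and 1134 lower (library weights) and 1464 higher (the 6 libraries alone, HBOT replicate 2 left out). Genes without overlap numbered 1415 to 3045 higher and 1262 to 2221 lower with 1 library left out, and 3045 higher (the 6 libraries alone) and 2197 higher and 2584 lower (median-of-ratios) with HBOT replicate 2 left out. Whether libraries with the same number pair was not settled. The correlations of their deviations from the group means were 0.021, 0.107 and 0.068, and those between different numbers ran from -0.13 to 0.054. With a replicate block 1400 genes had an unadjusted p under 0.05 (limma) and 0 were called. Many named genes were chosen for a small p or for HBOT and NC not overlapping. Leaving out a CTX library cannot change the fold change of HBOT against NC. A count of kept signs is therefore no independent support. Of 164 named genes, 146 kept their sign in all 23 alternatives. For the others, the log2 fold changes with 1 library left out, and in brackets with library weights (weights), the 6 libraries without HBOT replicate 2 (6 libraries), median-of-ratios without it (ratios) or another scaling, were Fshr -0.11 to 0.72, Foxo3 -0.33 to 0.11 (weights 0.13, 6 libraries 0.11, ratios 0.056), Star -1.64 to 0.85, Cdkn1a -0.11 to 0.59 (6 libraries -0.11, ratios -0.17), Hmox1 -0.13 to 0.19 (median-of-ratios 0.0012, quantile 0.0031, weights 0.199, 6 libraries 0.19, ratios 0.13), Mki67 -0.22 to 0.12, Figla -0.043 to 0.15, Foxl2 -0.24 to 0.101 (weights 0.11, 6 libraries 0.101, ratios 0.039), H2-Eb1 -0.26 to 0.88 (6 libraries -0.17, ratios -0.21), H2-T23 -0.36 to 0.37 (weights 0.38, 6 libraries 0.37, ratios 0.31), Ier3 -0.066 to 2.14 (6 libraries -0.066, ratios -0.12), Kit -0.61 to 0.41 (weights 0.42, 6 libraries 0.41, ratios 0.35), Plau -0.300 to 1.63 (weights -0.12, 6 libraries -0.300, ratios -0.36), Ptx3 -0.087 to 1.51 (6 libraries -0.087, ratios -0.12), Runx1 -0.45 to 1.17 (weights -0.28, 6 libraries -0.45, ratios -0.504), Slc2a1 -0.12 to 1.09 (weights -0.0499, 6 libraries -0.12, ratios -0.18), Tap2 -0.41 to 0.34 (weights 0.28, 6 libraries 0.34, ratios 0.28) and Tapbp -0.48 to 0.091 (weights 0.048, 6 libraries 0.091, ratios 0.0295). The cause was not tested. Read counts, and with them the error of counting, could not be assessed.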

Other observations

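By size of difference rather than p, genes outside the lists stood out. They were chosen after their values were seen. None was called in the fit with equal weights and all 9 libraries, whereas Bhmt, Mndal and Mt3 were called with library weights, and Mndal also without NC replicate 3 (limma). Bhmt, the betaine-dependent enzyme that turns homocysteine into methionine, was at 0.32, 0.189 and 0.407 FPKM in HBOT against 122, 125 and 17.4 in NC and 0.22, 87.7 and 60.2 in CTX, with a log2 fold change of -5.66 (SE 1.48) and -5.59 without HBOT replicate 2. Every HBOT library was below 1 FPKM, so Bhmt entered through NC alone and was lower by construction. NC replicate 3 was the lowest NC library, and CTX replicate 1 was as low as HBOT. Plin5, a lipid droplet protein, was at 4.75, 0.337 and 2.799 against 35.8, 37.5 and 6.52 (-2.84 and -2.23), with CTX at 0.868, 30.4 and 26.1. Rab27a, a GTPase of vesicle secretion, was at 5.81, 2.72 and 3.52 against 49.1, 40.8 and 15.7 (-2.75 and -2.56), with CTX at 2.798, 48.3 and 42.2. The oxytocin receptor Oxtr was at 15.4, 6.83 and 9.95 against 65.7, 55.6 and 23.9 (-2.02 and -1.76), with CTX at 11.8, 72.03 and 52.02.

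On the higher side, Mndal, an interferon-inducible gene with close copies, was at 19.6, 11.6 and 20.8 FPKM in HBOT against 0.877, 0.819 and 7.28 in NC (2.55 and 2.799 without HBOT replicate 2), with CTX at 8.33, 9.29 and 8.62. Ass1, which makes argininosuccinate in arginine synthesis, was at 15.3, 40.2 and 10.3 against 3.401, 4.29 and 3.13 (2.102 and 1.57). Comp, a cartilage matrix protein, was at 5.701, 8.78 and 5.32 against 1.24, 0.459 and 0.41 (2.16 and 1.97). Mt3, a metallothionein, was at 14.01, 7.64 and 16.5 against 2.44, 3.103 and 6.45 (1.48 and 1.78). Below the filter, and so not tested, HBOT replicate 2 alone held ovulatory transcripts. The growth factors Ereg and Areg were at 0.964, 361 and 0.426 and at 0.481, 145 and 0 FPKM in HBOT against 0.47, 0.529 and 0.42 and 0, 0 and 0 in NC, and the progesterone receptor Pgr was at 0.545, 49.1 and 0.254 against 0.313, 0.462 and 0.337.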
